A study of Mus musculus with 7 samples.

Results

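Mitochondria make most of a cell's ATP with 5 protein complexes of the inner membrane, and the subunits described here are those encoded in the nucleus. Members were the genes named Nduf (followed by a, b, c, s or v and a digit), Sdha to Sdhd, Uqcr, Cox4 to Cox8 or Atp5 that are present in the authors' filtered table, without pseudogenes named -ps. That gave 83 genes of the 56691 in the deposited count table: 37 of complex I, 4 of complex II, 8 of complex III, 18 of complex IV and 16 of complex V. Ndufa4 and Ndufa4l2 were placed in complex IV, where the Ndufa4 protein is now known to sit. All 83 members passed the filter on low counts, which the rule nearly requires, since the authors' table was filtered too.

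Skin was compared between 3 Tuft1 knockout mice (KO mice 2, 3 and 4) and 4 wild-type mice (WT mice 5, 6, 7 and 8), with 1 library per mouse. TUFT1 is a protein associated with desmosomes, the junctions that hold keratinocytes together. The knockout skin was taken where it looked healthy, and the strain, age and sex of the mice, and the deleted stretch of the gene, are not stated in the labels. Libraries were made with the QuantSeq 3' mRNA kit, which reads a tag near the end of each polyadenylated transcript. Counts therefore do not grow with transcript length, and levels of different genes were compared. A limit is that tags of some genes may not be counted. For example, mt-Co2, encoded in mitochondrial DNA, had 0 counts in every library, beside 504194 to 1249627 counts for mt-Nd4. How far this affects differences in level between genes was not tested. Levels are CPM (counts scaled to the same library total) after TMM scaling, a correction for differences in library composition. Fold changes are log2 of KO over WT from edgeR's quasi-likelihood test, with p-values adjusted by the Benjamini-Hochberg method over all 12888 genes tested, and a gene was called at an adjusted p below 0.05.

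As background, complex I (NADH dehydrogenase), complex II (succinate dehydrogenase), complex III (the cytochrome bc1 complex) and complex IV (cytochrome c oxidase) pass electrons from food to oxygen. All but complex II pump protons as they do so, and complex V, the ATP synthase, uses the returning protons to make ATP. Some complex IV subunits exist as separate genes for heart and skeletal muscle and for most other tissues, and mouse skin carries a thin sheet of skeletal muscle, the panniculus carnosus, under its fat layer.

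Libraries held 7009237 to 9256459 counts, and 3 counts, taken as the limit that a count of 0 allows, correspond to 0.323 to 0.395 CPM. Tuft1 itself was at 19.9, 29.1 and 17.2 CPM in the KO mice and at 106, 104, 55.6 and 114 CPM in the WT mice (log2 fold change -2.10, SE 0.39, edgeR adjusted p = 0.172), so the groups did not overlap. As the deleted stretch is not known here, this tag near the transcript's end checks the labels only in part. All 9 keratinocyte markers had counts in every library, with a summed level of 20001 to 26450 CPM. All 27 skeletal muscle contractile genes had counts in some library, but only 21 had enough to be tested. Tnnc2 and Mb, for example, had at most 8 and 20 counts in any library. Fat cell markers summed to 8490 to 10612 CPM in KO and to 15546 to 23947 CPM in WT skin, with all 12 genes below 0, a median log2 fold change of -1.43 and 0 called. KO mouse 2 stood apart in hair genes: 58 of 71 hair keratin and keratin-associated genes had counts there, against 3 to 5 in each other library. The part of these tissue differences in the values below was not tested. In bulk skin, fewer cells of a type and less RNA per cell cannot be told apart.

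No respiratory chain or ATP synthase gene was called between KO and WT skin. Of the 83 members, 35 had a log2 fold change above 0 and 48 below 0, and their median was -0.02, beside a median of -0.01 over all genes tested. The call rule marked 3 of 12888 genes (0.0233%), so a count of 0 members is close to the background. At an unadjusted p below 0.05 edgeR gave 2 members, beside 555 of all genes (4.31%). DESeq2 and limma-voom gave 4 and 3 members at that level, with no share over all genes given here. Both called 0 members, beside 123 genes called over all genes by DESeq2 and 22 by limma-voom. A p that misses the threshold does not show that levels were equal, so the intervals carry the result. The 95% interval of the log2 fold change lay within 1 unit of 0, which is a 2-fold change, for 61 members (73.5%), and 14.4% of all genes tested had an interval that narrow and central.

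Well counted genes have narrower intervals, and the members are more abundant than most genes. Among members with a mean of at least 50 CPM, a border chosen after the values were seen, 60 of 71 (84.5%) had such an interval, beside 52.1% of the 3485 genes above the same border. This does not match abundance fully, since the median level above the border was 220.5 CPM for members and 97.0 CPM for all genes. The log2 fold change itself was between -0.50 and 0.50 for 77 of the 83 members (92.8%), beside 52.5% of all genes tested. At 50 CPM or more these shares were 95.8% for members and 78.3% for all genes. Variation between mice was also small for most members: the median coefficient of variation over the 7 mice was 22.0%, and at 50 CPM or more it was 20.2% for members and 29.3% for all genes above the border.

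**Figure D1:**
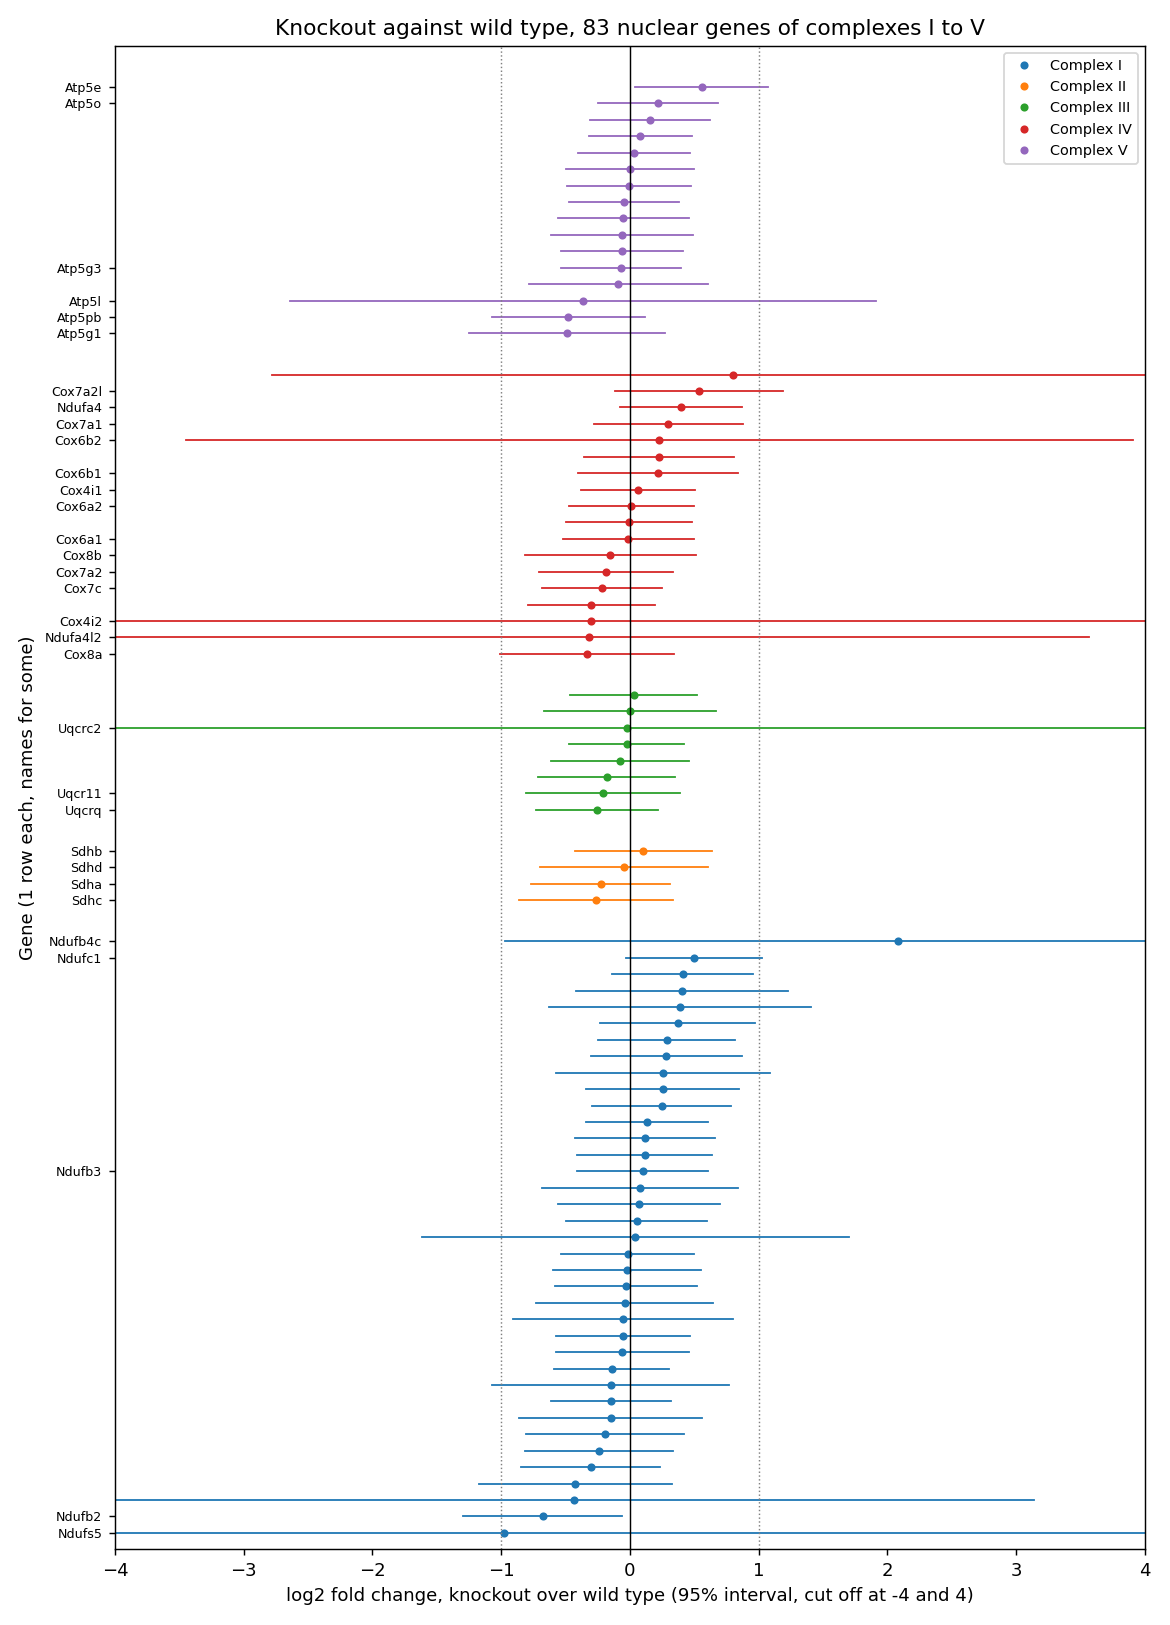
Log2 fold change (KO over WT skin) of the 83 nuclear genes of complexes I to V, grouped by complex; points are edgeR estimates and bars their 95% intervals, with 3 KO and 4 WT mice, and names stand beside some of the rows. The widest bars belong to genes of low mean level such as Uqcrc2, Ndufs5 and Cox4i2, and most of the other genes lie between -0.50 and 0.50.

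Summed over the members, the module made up 1.67% to 1.97% of all counts in each library. The summed level was 18235 ± 1265 CPM (SD, n = 3) in KO and 18166 ± 1748 CPM (SD, n = 4) in WT skin. KO mice 2, 3 and 4 were at 19556, 18113 and 17036 CPM, and WT mice 5, 6, 7 and 8 at 17429, 16627, 17952 and 20658 CPM. On this TMM-scaled level WT mouse 8 was the highest of all and WT mouse 6 the lowest, both in the same group. By share of all counts WT mouse 8 was again the highest, but WT mouse 7 was the lowest (1.67%, beside 1.72% in WT mouse 6). WT mouse 8 held the highest value in 27 of the 71 members at 50 CPM or more, and KO mouse 4 held the lowest in 21 and WT mouse 6 in 18 of them.

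The complexes were close to each other and to 0. Complex I, which oxidises NADH and is the largest of the 5, had a median log2 fold change of 0.04, with 19 members above and 18 below 0. Its summed level was 5882 ± 259 CPM in KO (SD, n = 3) and 5749 ± 633 CPM in WT skin (SD, n = 4). Its 7 core subunits, which carry the redox centres, had a median of 0.04, and its 30 accessory subunits one of 0.02. Ndufb3, the complex I member with the highest mean, 428 CPM, had a log2 fold change of 0.10 (SE 0.24). Ndufs5, the lowest with 2.76 CPM, had 9, 37 and 0 counts in KO mice and 70, 21, 5 and 28 counts in WT mice, which overlap. The complex I median was 0.04 also with Ndufa4 and Ndufa4l2 counted there.

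Complex II, the enzyme shared with the citric acid cycle, had 1 of 4 subunits above 0 and a median of -0.14. Sdhb, the iron-sulfur subunit, was at 273, 269 and 263 CPM in KO mice and at 267, 304, 157 and 269.8 CPM in WT mice (log2 fold change 0.10, SE 0.25). The KO mice lay within the span of the WT mice, whose lowest value was mouse 7. Sdha, the flavoprotein that oxidises succinate, was at 194, 205 and 147 CPM in KO mice and at 192, 187, 182 and 290.0 CPM in WT mice (log2 fold change -0.23, SE 0.25). WT mouse 8 was the highest for Sdha and KO mouse 4 the lowest, and the groups overlapped. The membrane anchors Sdhc and Sdhd had log2 fold changes of -0.26 (95% interval -0.86 to 0.33) and -0.05 (95% interval -0.70 to 0.61).

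Complex III, which hands electrons from ubiquinol to cytochrome c, had 7 of 8 members below 0, with a median of -0.05. Uqcrq, the ubiquinone-binding subunit with the highest level among them, was at 401, 308 and 292 CPM in KO mice and at 369.9, 326, 427 and 473 CPM in WT mice (log2 fold change -0.26, 95% interval -0.73 to 0.22). KO mouse 2 was inside the WT values and the other KO mice were just below them. Uqcr11, a small subunit with the second smallest p in the complex, had a log2 fold change of -0.21 (SE 0.28). Without WT mouse 7, the complex III median was -0.19.

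Complex IV, which reduces oxygen to water, had 9 members above and 9 below 0 and a median of 0.00. Complex V had 5 above and 11 below 0 and a median of -0.05. Among the 5 subunits of its catalytic F1 part, 4 were above 0 (median 0.08), and among the 9 of its stalk and membrane part, 1 was above 0 (median -0.06). No test of the difference between these subsets was made, and both medians are small beside the median standard error of a member, 0.26.

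Levels differed far more between genes than between groups. The highest mean was that of Atp5o, the stalk subunit that gives oligomycin sensitivity (chr16:91722102-91728575, mm39), at 913, 955 and 746 CPM in KO mice and 817, 540.3, 742 and 890.0 CPM in WT mice. Its values overlapped between the groups (log2 fold change 0.22, SE 0.22), with WT mouse 6 the lowest. Atp5a1, the alpha subunit of F1, had a mean of 714 CPM and the smallest coefficient of variation of all members, 8.69%. The lowest mean in complex V was 17.2 CPM, that of Atp5l, a membrane subunit with 206, 153 and 4 counts in KO mice and 183, 169, 120 and 183 counts in WT mice. The other members above 500 CPM were Atp5g3, Atp5k and Atp5b of complex V and Cox7c of complex IV.

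At the other end, 12 members had means under 50 CPM, and 5 members had a library with 0 counts. Some of them encode subunits that the complex needs in amounts equal to those of an abundant partner. Uqcrc2, a core protein of complex III (chr7:120234399-120258747, mm39), had 63, 38 and 0 counts in KO mice and 85, 37, 0 and 28 counts in WT mice. Its partner Uqcrc1 was 49.6-fold higher in mean CPM. Cox5a, a subunit of complex IV that every tissue uses, had 80, 112 and 100 counts in KO mice and 0, 149, 33 and 55 counts in WT mice, and Cox5b was 33.9-fold higher.

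How low values arise was not tested. Exons of 7 of the 12 low members (58.3%) overlap exons of another gene, and the same is true of 24 of the other 71 (33.8%). Counting only overlapped genes that had counts, the numbers were 4 (33.3%) and 19 (26.8%), and the genes overlapping Uqcrc2 and Cox5a had 0 and 1 counts. Whether the counting used strand, and how it treated reads that 2 genes could claim, is not stated by the labels or notes, so levels of such genes are uncertain. Most of these low genes had wide intervals of the log2 fold change, such as -5.29 to 5.25 for Uqcrc2 and -2.78 to 4.37 for Cox5a, so a 2-fold difference in either direction lies inside them. Ndufb7, at 46.9 CPM, had a narrower interval of -0.91 to 0.80.

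**Figure D2:**
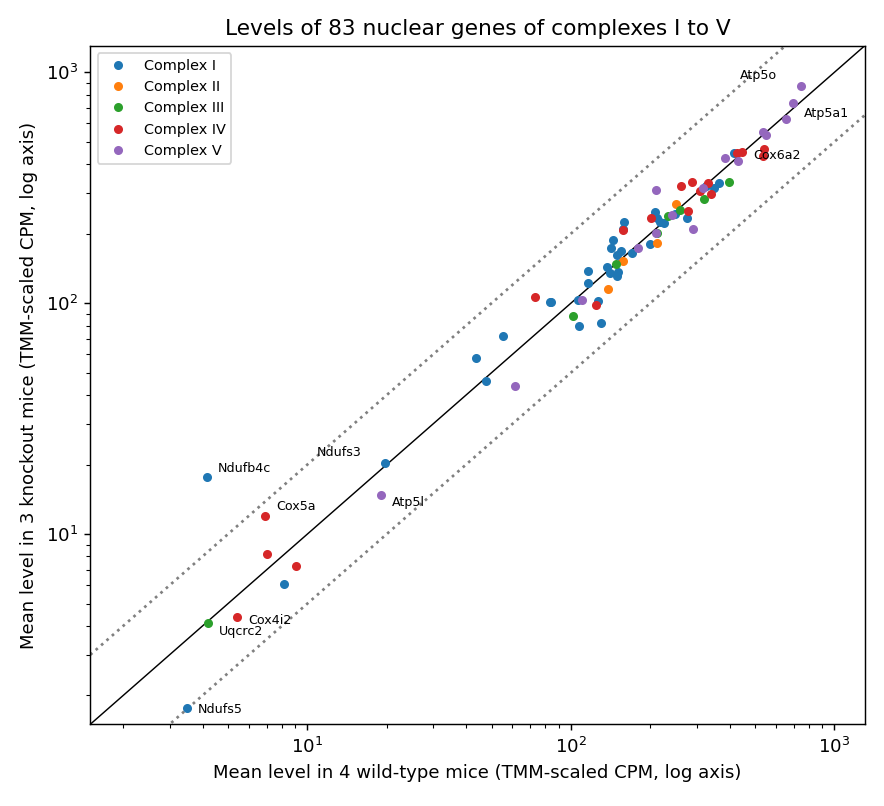
Mean level in WT skin (x axis) against KO skin (y axis) of the 83 genes, both in TMM-scaled CPM on log axes, coloured by complex, with the line of equal levels. Genes from 50 to 800 CPM lie near the line, and those under 50 CPM scatter around it.

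Muscle-type subunits of complex IV were abundant in all 7 skins and did not separate the groups. Cox6a2, the muscle form of a regulatory subunit (chr7:127804607-127805559, mm39), was at 496, 351 and 505 CPM in KO mice and at 419.8, 352, 540.4 and 476 CPM in WT mice. The ranges overlap almost wholly (log2 fold change 0.01, SE 0.22, 95% interval -0.47 to 0.50). Its mean of 449 CPM exceeded the 307 CPM of Cox6a1, the form of most other tissues.

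Cox7a1, the muscle form of another small subunit that is also known from brown fat (chr7:29883569-29885503, mm39), was at 339.9, 378 and 250.4 CPM in KO mice and at 273, 157, 309 and 310.0 CPM in WT mice. KO mice 2 and 3 were above every WT mouse, KO mouse 4 was below 3 of the 4, and WT mouse 6 was the lowest (log2 fold change 0.30, SE 0.27, 95% interval -0.28 to 0.88). Cox8b, known from the same tissues (chr7:140478858-140480359, mm39), was at 347, 194 and 210.3 CPM in KO mice and at 252, 173, 268 and 418 CPM in WT mice. Its groups overlapped, with WT mouse 8 highest and WT mouse 6 lowest (log2 fold change -0.15, SE 0.31, 95% interval -0.82 to 0.52). Of the 8 brown and beige fat markers that are no members, 5 were tested, 4 were above and 1 below 0 (median 1.20), and 0 were called. Their summed level was 117 to 308 CPM in KO and 64.7 to 207 CPM in WT skin. Ucp1, the defining gene of brown fat, and Cpt1b had 0 counts in all 7 libraries. Whether tags of these genes could be counted was not tested, so a count of 0 does not show absence. Cidea, a lipid droplet protein that sebaceous glands also make, was at 47.0, 170.04 and 142 CPM in KO and 51.0, 33.4, 41.0 and 71.0 CPM in WT mice (log2 fold change 1.28, SE 0.42, edgeR adjusted p = 0.918). The part of these markers in the Cox7a1 and Cox8b values was not tested. The counterparts had log2 fold changes of -0.01 for Cox6a1, -0.18 for Cox7a2 and -0.33 for Cox8a.

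**Figure D3:**
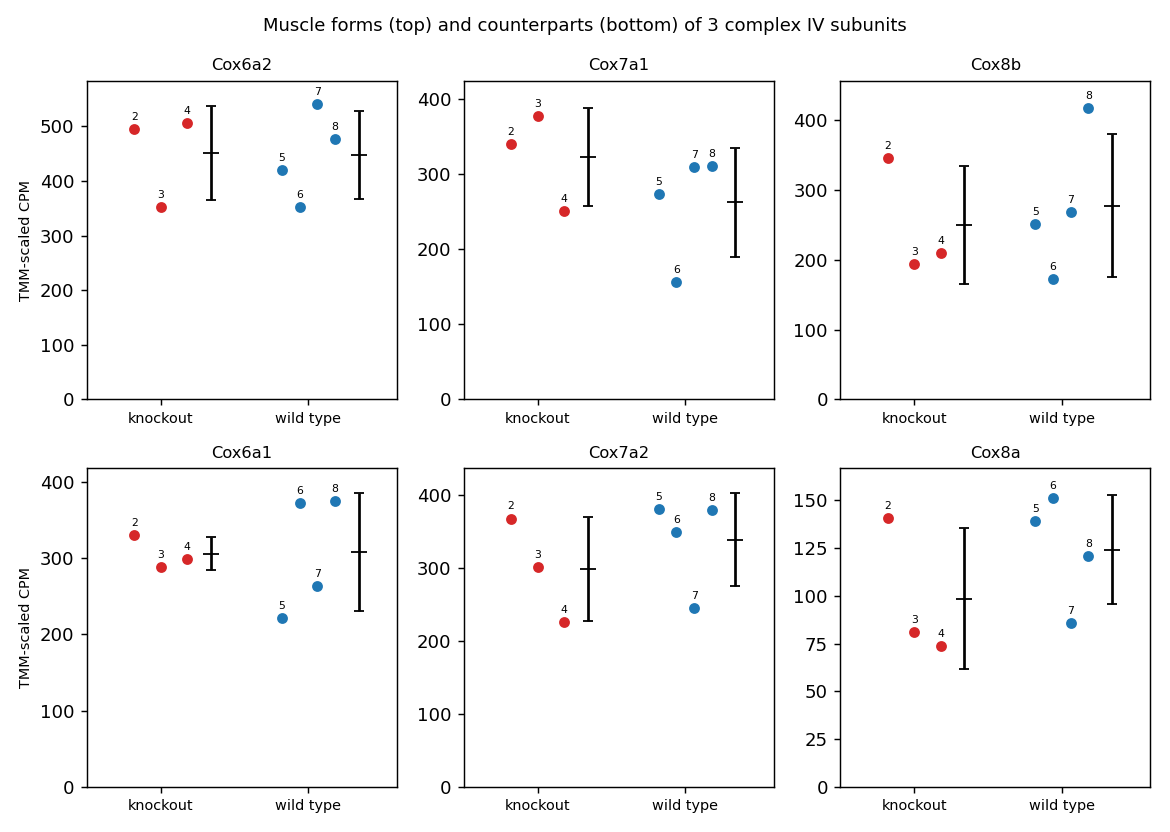
Level in TMM-scaled CPM (y axis, from 0) of the muscle-type complex IV genes and their counterparts in each mouse; points carry the mouse number and black bars are the mean ± SD of 3 KO and 4 WT mice. In each of the 6 genes the values of KO and WT mice overlap.

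The promoters of 2 such pairs are shown because muscle-type and common forms differ there in a feature the members can be compared by, the number of CG dinucleotides. The sequences are the 250 bases before the transcript start from RefSeq on GRCm38.p6, 5' to 3' on the strand of the gene, with every CG in capitals. They are Cox7a1 at chr7:30183921-30184170 (plus strand), Cox7a2 at chr9:79759854-79760103 (minus strand), Cox8b at chr7:140900447-140900696 (minus strand) and Cox8a at chr19:7217617-7217866 (minus strand).
Cox7a1: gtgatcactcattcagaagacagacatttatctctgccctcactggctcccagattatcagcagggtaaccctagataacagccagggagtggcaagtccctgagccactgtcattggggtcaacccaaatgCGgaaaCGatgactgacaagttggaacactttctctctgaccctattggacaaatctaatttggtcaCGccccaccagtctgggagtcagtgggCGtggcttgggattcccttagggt
Cox7a2: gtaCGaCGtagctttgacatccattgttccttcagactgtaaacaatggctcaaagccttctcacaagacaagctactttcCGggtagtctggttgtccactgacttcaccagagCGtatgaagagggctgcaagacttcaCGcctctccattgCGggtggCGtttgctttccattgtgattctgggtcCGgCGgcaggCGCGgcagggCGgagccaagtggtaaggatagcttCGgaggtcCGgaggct
Cox8b: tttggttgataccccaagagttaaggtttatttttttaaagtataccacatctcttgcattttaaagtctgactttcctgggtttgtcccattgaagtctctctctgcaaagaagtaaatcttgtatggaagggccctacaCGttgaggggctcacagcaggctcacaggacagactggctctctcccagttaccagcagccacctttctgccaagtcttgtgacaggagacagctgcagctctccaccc
Cox8a: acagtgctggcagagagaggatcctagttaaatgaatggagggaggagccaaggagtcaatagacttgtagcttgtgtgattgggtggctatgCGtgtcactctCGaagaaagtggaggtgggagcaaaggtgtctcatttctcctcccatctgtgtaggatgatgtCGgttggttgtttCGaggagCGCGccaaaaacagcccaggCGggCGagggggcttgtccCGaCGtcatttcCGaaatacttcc
The muscle-type Cox7a1 and Cox8b held 4 and 1 CG, and their counterparts Cox7a2 and Cox8a held 14 and 11. The base composition was closer, at 51.2% and 47.2% G or C in the muscle forms and 54.8% and 52.8% in the counterparts. Low CG numbers were not particular to muscle forms, although the median member held 14. Ndufc2 of complex I held 4 CG, and Uqcr10 of complex III and Cox7b, a common subunit of complex IV, held 5 each. Cox6a2 is not among the sequences used here.

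Over the 67 members with a RefSeq promoter in the table, the median was 14 CG in these 250 bases, and over all 27025 genes of the table it was 6. For a gene with more than 1 start, the highest CG number was used. The 300 bases from 250 before to 50 after the start were also searched on both strands for 4 motifs. A gene counted once per motif if any of its starts had a match. Nuclear respiratory factor 1 (NRF1) is a known activator of respiratory genes. The letters it binds, GCGCA and GCGC with any 1 base between them, were in 16 members (23.9%) and 5.19% of the 27025 genes. AAGATGGC, a YY1 motif, was in 10 members (14.9%) and in 3.19% of the 27025 genes. CCGGAAGT, an ETS motif such as that of GABP, was in 5 members (7.46%), beside 4.31% of all. TCAAGGTCA, an estrogen-related receptor motif, was in 2 members (2.99%), beside 0.466% of all. The 4 motifs have different cores, and a match is a description of the letters, not of binding. The members had passed a filter on low counts, and the 27025 genes had not. The NRF1 and ETS letters also contain CG, of which the members hold more. The part of expression and CG content in these shares was not tested.

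Of the 4 promoters printed above, Cox8a had a match to the ETS motif in its 300 bases and the other 3 had none of the 4 motifs. Among members whose KO and WT values did not overlap (described below), Ndufb2, Atp5e, Ndufa4 and Atp5g1 had a promoter in the table, and none of the 4 held a motif. Over the 67 members with a promoter, 29 held at least 1 of the 4 motifs, so most members held none. Of other named genes, the Atp5g3 promoter held the NRF1 and estrogen-related receptor motifs and that of Ndufb4 the NRF1 motif. Those of Ndufc1 and Atp5pb held the YY1 motif, and those of Cox7a2l and Cox6b1 held none. A link between motifs and the KO and WT values was not tested.

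The share of the muscle form in the summed counts of a pair does not depend on library scaling. The Cox6a2 share of Cox6a2 plus Cox6a1 counts was 60.1%, 54.9% and 62.9% in KO mice and 65.4%, 48.6%, 67.2% and 56.0% in WT mice. The means were 59.3% ± 4.04 (SD, n = 3) and 59.3% ± 8.68 (SD, n = 4), and p was 1.0 by an exact permutation test (two-sided) that divided the 7 mice into 3 and 4 in all 35 ways. The Cox7a1 share was 48.0%, 55.6% and 52.6% in KO mice and 41.8%, 31.0%, 55.7% and 44.9% in WT mice.

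WT mouse 7 was the highest for Cox7a1 and WT mouse 6 the lowest, so both ends lay in 1 group. The means were 52.1% ± 3.82 (SD, n = 3) and 43.3% ± 10.2 (SD, n = 4), a difference of 8.74 points (exact two-sided permutation p = 0.257, adjusted p = 0.771 over the 3 pairs). The Cox8b share was 71.1%, 70.5% and 74.1% in KO mice and 64.4%, 53.4%, 75.8% and 77.6% in WT mice. Its means of 71.9% ± 1.90 (SD, n = 3) and 67.8% ± 11.2 (SD, n = 4) differed by 4.11 points (exact two-sided permutation p = 0.657, adjusted p = 0.986). The smallest p this design allows is 0.0286.

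Counting error is small beside these differences between mice. The 95% Wilson interval of the Cox7a1 share in WT mouse 6 was 29.6% to 32.3%, and, like the limit for a count of 0, it reflects counting error alone, since no molecular tags are stated that would mark copies of 1 molecule. WT mouse 6 had the lowest share in all 3 pairs.

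**Figure D4:**
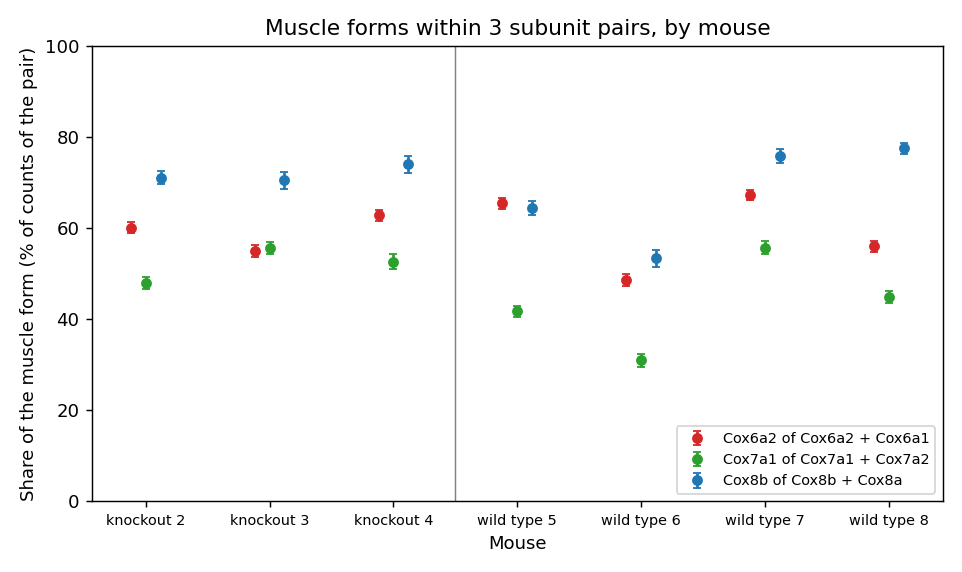
Share of the muscle form in the summed counts of each pair, in percent (y axis), for 3 KO and 4 WT mice. Each point is a mouse, and its bar is the 95% Wilson interval of the share in that library. The bars show counting error alone, not the spread between mice. WT mouse 6 is the lowest point in all 3 pairs, and KO mice lie inside the WT values.

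The summed level of the 27 contractile genes was 30644, 41211 and 40168 CPM in KO mice and 28245, 24995, 30652 and 37771 CPM in WT mice. WT mouse 6 was the lowest here too, and the groups overlapped. Of the 21 contractile genes tested, 20 were above 0 (median 0.26) and 0 were called. Over the 7 mice, 6 relations between this level and a complex IV gene were computed, on the log2(CPM + 1) scale. Cox7a1 gave Pearson's r = 0.61 (exact permutation p = 0.125, adjusted p = 0.376) and Spearman's rho = 0.54 (exact permutation p = 0.236, adjusted p = 0.533). Without KO mice 3 and 4, the mice farthest from the median contractile level, r was 0.74.

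Cox8a, a common form, gave r = -0.75 (exact permutation p = 0.0687, adjusted p = 0.376) and rho = -0.89 (exact permutation p = 0.0123, adjusted p = 0.0738). Without the same 2 mice its r was -0.40, so the relation rests in part on them. Cox6a2 and Cox8b gave r = 0.17 and 0.14 (exact permutation p = 0.686 and 0.753, adjusted p = 0.903 for both), with rho = 0.07 for each (exact permutation p = 0.906, adjusted p = 0.963). Their r without those mice was 0.68 and 0.94. The counterparts Cox6a1 and Cox7a2 gave r = 0.05 and -0.41 (exact permutation p = 0.918 and 0.357, adjusted p = 0.918 and 0.715), with rho = -0.04 and -0.50 (exact permutation p = 0.963 and 0.267, adjusted p = 0.963 and 0.533), and r = 0.21 and 0.07 without those mice. None of the 6 relations passed after adjustment, and each group holds too few mice for a value of its own.

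In 5 of the 83 members the KO and WT values did not overlap, 3 with KO higher and 2 with KO lower. Over all genes tested, 888 (6.89%) did not overlap, 443 with KO higher (3.44%) and 445 with KO lower (3.45%), so the members' share is near the background. Without KO mouse 2, a check added after the values were seen, 12 members did not overlap, beside 16.4% of all genes tested.

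Atp5e, the epsilon subunit of the F1 stalk (chr2:174302865-174305898, mm39), was at 230.1, 279 and 422 CPM in KO mice and at 219, 197, 225 and 201 CPM in WT mice. KO mouse 4 was far above the others, KO mouse 2 was just above WT mouse 7, and the WT mice were close together. The log2 fold change was 0.56 (SE 0.24, 95% interval 0.04 to 1.08), with an unadjusted p of 0.0364 and an adjusted p of 0.9997 from edgeR. Without KO mouse 4 it was 0.27, the lowest over the alternatives, and the highest was 0.73. Across those alternatives its smallest adjusted p was 0.340, with DESeq2.

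Ndufb2, an accessory subunit in the membrane arm of complex I (chr6:39569508-39580316, mm39), was at 87.4, 82.7 and 75.2 CPM in KO mice and at 107, 95.8, 176 and 143 CPM in WT mice. The 3 KO mice were close together and the WT mice spread widely above them. The log2 fold change was -0.68 (SE 0.29, 95% interval -1.29 to -0.06), with an unadjusted p of 0.0343 and an adjusted p of 0.9997 from edgeR. Exons of Ndufb2 overlap those of Braf, a gene on the other strand with 951 counts over all libraries against 6424 for Ndufb2.

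Ndufa4, a complex IV subunit once assigned to complex I (chr6:11900291-11907496, mm39), was at 230.4, 203 and 187 CPM in KO mice and at 157, 134.5, 159 and 177 CPM in WT mice. The lowest KO mouse, 4, was close to the highest WT mouse, 8 (log2 fold change 0.40, SE 0.22, 95% interval -0.08 to 0.87). Atp5g1, a gene of the membrane ring's c subunit (chr11:95959678-95966496, mm39), was at 49.2, 44.9 and 36.7 CPM in KO mice and at 53.5, 55.2, 59.7 and 76.5 CPM in WT mice. KO mouse 2 was just below WT mouse 5 (log2 fold change -0.49, SE 0.35, 95% interval -1.25 to 0.27).

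Atp5g1 and Atp5g3 encode the same mature protein with different import peptides, and Atp5g3 was 11.98-fold higher in mean level. Atp5g3 had a log2 fold change of -0.07 (SE 0.22), and the Atp5g1 share of their summed counts was 6.51% ± 0.38 (SD, n = 3) in KO and 8.60% ± 0.76 (SD, n = 4) in WT skin. The c subunit gene Atp5g2 had 108, 0 and 74 counts in KO mice and 0, 6, 0 and 2 in WT mice and is no member, since it is not in the authors' filtered table.

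Ndufb4c, a gene named as a copy of the complex I subunit gene Ndufb4 (chr15:73681356-73681745, mm39), was at 16.2, 8.63 and 28.1 CPM in KO mice and at 0.22, 3.60, 6.51 and 6.31 CPM in WT mice. KO mouse 3 was just above the highest WT mice and WT mouse 5 was below the level of 3 counts (log2 fold change 2.08, SE 1.41, 95% interval -0.97 to 5.14). Ndufb4 itself had a log2 fold change of 0.07 (SE 0.29) and a mean of 139.5 CPM, and how reads were divided between near-identical copies is uncertain.

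**Figure D5:**
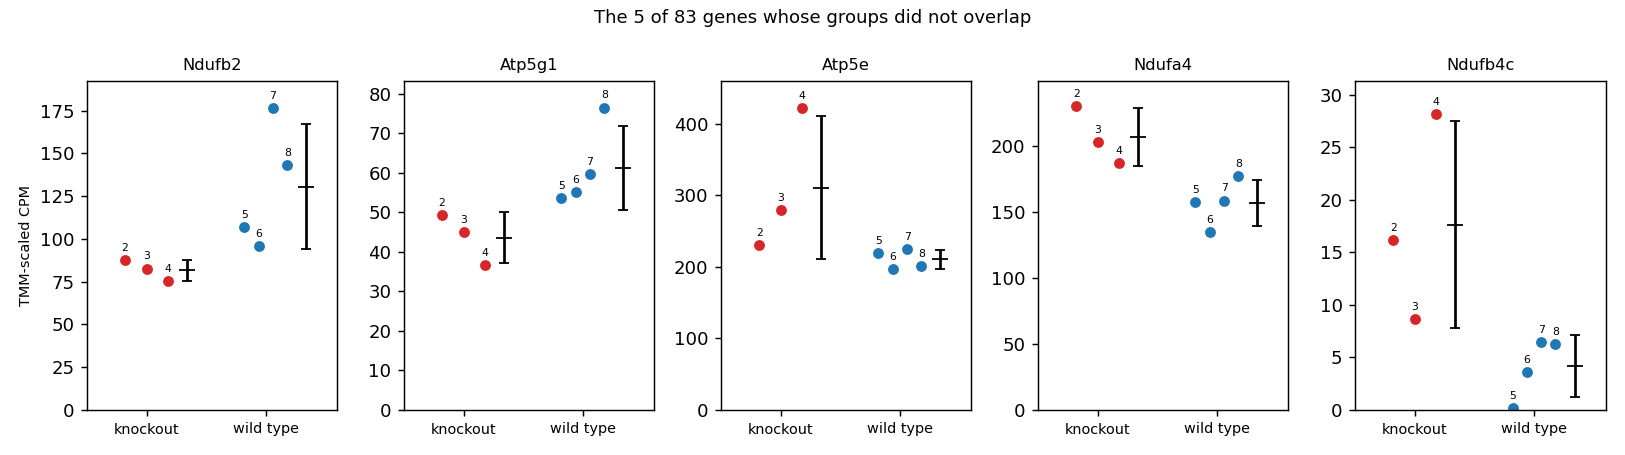
Level in TMM-scaled CPM (y axis, from 0) in each mouse of the 5 genes whose KO and WT values do not overlap; points carry the mouse number and black bars are the mean ± SD of 3 KO and 4 WT mice. In each gene the nearest KO and WT mice lie close together, such as 230.1 and 225 CPM for Atp5e.

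Among the other members with the smallest p in their complex, Ndufc1, an accessory subunit of complex I, had a log2 fold change of 0.50 (95% interval -0.03 to 1.03). Cox7a2l, a factor that joins complexes III and IV into supercomplexes, had one of 0.54 (95% interval -0.12 to 1.19), and its KO mice were at 81.8, 143 and 93.3 CPM against 63.4, 68.2, 67.8 and 92.9 CPM. WT mouse 8 lay inside the KO values. Atp5pb, the b subunit of the ATP synthase's outer stalk, had a log2 fold change of -0.48 (95% interval -1.07 to 0.11). Without KO mouse 2 it was -0.88 (edgeR unadjusted p = 0.00543, adjusted p = 0.526), and without KO mouse 4 it was -0.28. Forms known from other tissues were scarce: Cox4i2, the lung and oxygen-regulated form of Cox4, had a mean of 4.96 CPM against 434 CPM for Cox4i1, Cox6b2, the testis form of Cox6b, had 7.54 CPM against 215 CPM for Cox6b1, and Ndufa4l2 had 8.30 CPM against 178 CPM for Ndufa4.

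Other genes of the pathway were also without a call. Of the 13 subunits encoded in mitochondrial DNA, 7 were tested, all 7 were below 0 with a median of -0.28, and their intervals were within 1 unit of 0. Of the rest, mt-Nd4l, mt-Co2, mt-Co3 and mt-Atp8 had 0 counts in every library. In any library mt-Atp6 had at most 33 counts and mt-Nd3 at most 263. Why these counts are so low was not tested, so the 7 need not stand for all 13. The smallest p among them was that of mt-Nd5, a core subunit of complex I, whose fold change was -0.42 on the log2 scale (SE 0.23, adjusted p = 0.9997 by edgeR). Of 41 assembly factors tested, 17 were above and 24 below 0 (median -0.05). Sco1, a copper chaperone of complex IV, had 0 counts in the 3 KO libraries and 13, 135, 42 and 82 counts in WT mice (edgeR adjusted p = 0.988). Of 15 citric acid cycle genes tested, 6 were above and 9 below 0 (median -0.04), with Idh3a, a subunit of isocitrate dehydrogenase, at -0.64 (SE 0.35).

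Of 11 regulators of mitochondrial content tested, 7 were above and 4 below 0 (median 0.34), with levels of 6.28 to 63.0 CPM. Gabpb1, a subunit of the activator GABP, had the smallest p among them (log2 fold change 1.65, SE 1.42). Of 4 further mitochondrial genes tested outside the name rule (Ndufab1, Cyc1, Cycs and Micos10), 2 were above and 2 below 0 (median 0.01). Cycs, the electron carrier cytochrome c, was at -0.61 (SE 0.35).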

How the data were processed

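RNA from skin of 7 mice was made into QuantSeq 3' libraries, per the labels' protocols. The authors deposited unnormalized counts for each gene. Per the submitters' processing notes, the mm39 build was used with featureCounts, Subread 2.0.3, STAR, edgeR 3.36.0 and GATK 4.2.4.0, with no order of steps given. The authors also deposited filtered log2 values for 12954 genes. Recomputing edgeR's log2 CPM (prior count 2, TMM factors) from the counts matched each of these 90678 values to 1e-09. They served to define the members and an alternative set of genes.

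Counts were fitted in edgeR 4.0.16 (R 4.3.3) with its expression filter at a minimum of 10 counts, TMM factors and the quasi-likelihood F test, with standard errors from the F statistic and 95% intervals from its degrees of freedom. The procedure was tested on simulated data. DESeq2 1.42.0, limma-voom (limma 3.58.1), other scalings, no filter and leaving out each mouse were alternatives. Single values were compared by an exact permutation test over the 35 splits. The labels give a mouse number for each library and nothing more on how the mice were kept or related. With a common biological coefficient of variation of 108%, depth was not the only limit.

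The members and all gene lists were chosen with earlier results of these data known. Named genes were Tuft1, the tissue-specific forms and their counterparts, all complex II subunits, the highest, lowest and 2 smallest-p members of each complex, members whose groups did not overlap, and the smallest-p gene of each further pathway list. Others named as abundant, scarce or partners were chosen after their values were seen. The name pattern also matched 22 genes that are no members: 14 named -ps, 12 of them with counts, and 8 others, and 6 of the 22 had no counts. Exons of 31 members overlap another gene. Of the 83 members, 16 had no entry in the promoter table.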

Additional observations from a re-analysis of the deposited data

Results flagged for a closer look

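In 5 of 86 groups of 4 WT mice tested, 1 mouse stood far from the others on the log2 CPM scale, and chance alone gives about 1 in 20, or 4.3 groups. Sdha, the catalytic subunit of complex II, was at 8.18 in WT mouse 8, above 7.51 to 7.59 in the other WT mice. Atp5k, a membrane subunit of the ATP synthase, was at 9.37 in WT mouse 5, above 8.99 to 9.04. Atp5b, its catalytic beta subunit, was at 8.79 in WT mouse 7, below 9.13 to 9.17. Ndufc2, an accessory subunit of complex I, was at 7.41 in WT mouse 6, below 7.90 to 7.97. Cox6b2, the testis form of a complex IV subunit, was at -1.04 in WT mouse 8, below 2.90 to 3.63, from few counts. The 5 values came from 4 different mice.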

How the results depend on the processing

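No member was called under any of the 13 other settings. Over all genes, 3 were called in the main comparison, 123 with DESeq2, 22 with limma-voom, 76 without the expression filter, and 0 to 1 when each mouse was left out in turn. Of the 83 members, 36 kept the sign of their log2 fold change in every setting. Without KO mouse 2, 12 members did not overlap between the groups, beside 16.4% of all genes tested. Leaving out each mouse moved the median log2 fold change of all members between -0.07 and 0.06, that of complex I between -0.0020 and 0.12, complex II between -0.26 and 0.0076, complex III between -0.19 and 0.031, complex IV between -0.07 and 0.08 and complex V between -0.11 and 0.06. Among the genes under the naming rule, it turned the sign of these log2 fold changes: Atp5g3 (-0.18 to 0.082), Atp5l (-1.11 to 0.20), Cox4i1 (-0.022 to 0.17), Cox4i2 (-1.37 to 0.78), Cox6a1 (-0.14 to 0.10), Cox6a2 (-0.10 to 0.16), Cox6b2 (-0.57 to 0.74), Cox8b (-0.46 to 0.12), Ndufa4l2 (-0.87 to 0.50), Ndufb3 (-0.033 to 0.28), Sdhb (-0.064 to 0.20), Sdhd (-0.29 to 0.17) and Uqcrc2 (-0.98 to 0.70). The share difference of Cox6a2 ranged from -3.60 to 2.61 points and that of Cox8b from -0.70 to 7.37 points. Cox6a1 was at 0.0040 with DESeq2, 0.0040 with DESeq2 size factors in edgeR and 0.025 with limma-voom, and Ndufa4l2 at 1.18 with limma-voom. Against fast-fibre genes alone, r was -0.083 for Cox6a2, -0.070 for Cox6a1 and -0.24 for Cox8b. Cox7a1 and Cox7a2 were at 0.48 and -0.56. For Cox8a r was -0.86 (exact permutation p = 0.0129, adjusted p = 0.0774), and -0.68 without KO mice 3 and 4. The cause was not tested. No paired analysis was made, since the labels give no pairing of KO and WT mice. Intervals were widest among members of low count.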
